A study of Mus musculus with 8 samples.

Results

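Liver was compared with small intestine in 4 RNA-seq libraries, 2 of each tissue, out of 8 libraries from 4 mouse tissues. The libraries were chosen by their tissue label and by the matching column names, and no measured value entered the choice. Both tissues came from male C57BL/6 mice (C57BL/6J in the study's methods), an inbred laboratory strain, of 6 to 10 weeks of age, and no treatment or altered genotype is named, so that tissue was the labelled difference. According to the study, the organs were taken from each mouse and the libraries of a tissue came from separate animals, but which liver and which small intestine library share a mouse is not stated. The tissue was ground whole and polyadenylated RNA was sequenced, so each library holds every cell type of the piece taken, and the segment of intestine is not stated. In such bulk samples, fewer cells of a type and less RNA per cell cannot be told apart.

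Liver and small intestine both arise from the endoderm and are joined by the portal vein, which carries absorbed sugars, amino acids and short-chain nutrients from the gut wall to the hepatocytes before they reach the rest of the body. Hepatocytes make most plasma proteins, bile acids, urea and glucose, while the intestinal epithelium digests food at its brush border, takes up the products, packs fat into chylomicrons and secretes mucus, antimicrobial proteins and hormones. Bile acids travel between both organs: they are made and secreted by the liver, taken up by the ileum and returned through the portal vein.

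Between 9164187 and 11323623 reads were counted on genes per library, recovered from the deposited values. Levels are given as fragments per kilobase of exon scaled to the fragments of the library (FPKM), which were rescaled by the median of ratios to factors of 0.701 to 1.38, and all FPKM values below are on this rescaled scale. For a gene with 1 kb of exons, 3 reads corresponded to a deposited FPKM between 0.265 and 0.327, below which a value is not told from 0; the floor covers counting error only. The libraries of a tissue correlated at a Pearson r of 0.985 in liver and 0.975 in small intestine on log2(FPKM + 1) over 12317 genes, against 0.420 to 0.439 between tissues, where genes are not independent replicates. Hepatocyte markers (8 of 8 listed) summed to 77098 and 61229 FPKM in liver against 20.3 and 19.1 in small intestine, and enterocyte markers (8 of 8) to 105 and 103 against 8712 and 9276, with no defining marker at 0, so both labels fitted the data. Markers of pancreatic acinar cells also summed to 1927 and 917 FPKM in the small intestine libraries, against 3.91 and 2.89 in liver, with 9 of 9 called higher in small intestine. Smooth muscle markers summed to 233 and 201 FPKM in small intestine against 7.05 and 6.13 in liver, and erythroid markers to 1035 and 991 in liver against 237 and 76.1 in small intestine. The part of these cells in the results was not tested.

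Of 12317 genes that reached 1 FPKM in 2 or more of the 4 libraries, 2213 were called higher in liver (18.0%) and 2360 higher in small intestine (19.2%), 37.1% in all. The counts of each list below are to be read beside these shares. Genes can pass the filter through the libraries of a single tissue, which favours a call in its direction. A gene was called when its adjusted p-value in limma was below 0.05 and the absolute log2 difference, liver minus small intestine, was over 1. Differences of over 5 on the log2 scale were found for 278 genes in the direction of liver and 208 in the direction of small intestine, while 1203 and 1282 of the calls were between 1 and 2. The balance of the calls rested on the scaling. With the values as deposited, 1324 genes were called higher in liver and 4428 higher in small intestine, so that the share of calls in the direction of liver went from 48.4% to 23.0%, and the median log2 difference of all genes from -0.02 to -0.67. None of the 616 called genes in the lists below changed sign under the other scalings, but 42 of the 91 listed genes that were not called did, and no direction is drawn for these. The calls among listed genes moved from 366 in the direction of liver and 250 in that of small intestine to 318 and 273 with the values as deposited. Single genes could not be tested by permutation alone, because 2 libraries against 2 allow no exact two-sided permutation p below 0.333.

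The liver libraries were held by fewer genes than the small intestine libraries. Without mitochondrial genes and their chromosome 1 copies, the 10 highest genes held 27.4% and 28.3% of the summed FPKM in the liver libraries and 15.2% and 14.98% in the small intestine libraries. It took 46 and 40 genes to reach 50% of the sum in liver and 210 and 192 in small intestine. The highest gene was Alb, serum albumin, in both liver libraries, Igkc, the kappa light chain of antibodies, in small intestine library 1 and Defa24, an alpha-defensin, in library 2. The highest row of every library was Gm29216, a chromosome 1 copy of mitochondrial sequence, at 51226 to 76782 FPKM, which was left out of these shares.

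**Figure D1:**
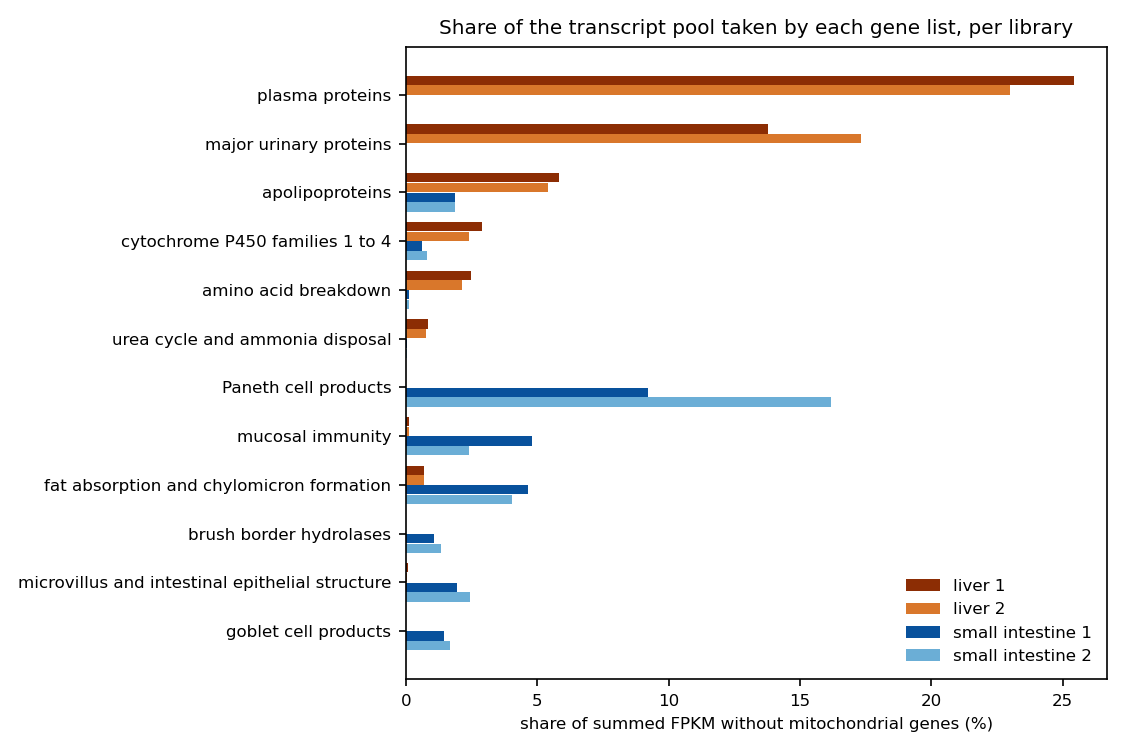
Share of summed FPKM, without mitochondrial genes, taken by 12 gene lists in each of the 4 libraries (bars, starting at 0). Plasma proteins and major urinary proteins reached 24.2% and 15.6% on average in liver and under 0.1% in small intestine, while Paneth cell products held 9.22% and 16.2% of the small intestine libraries.

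Secreted plasma proteins set the liver apart. All 37 tested genes of the plasma protein list were called higher in liver, against 18.0% of all tested genes, with a median log2 difference of 9.25, where the median over all tested genes was -0.02. The list held 24.2% ± 1.70 (SD, n = 2) of the summed FPKM in liver and 0.0172% ± 0.000692 in small intestine. Alb reached 49399 and 37272 FPKM in the liver libraries and 7.83 and 9.86 in the small intestine libraries. Ahsg, fetuin A, stood at 8041 and 5702 FPKM in liver against 0.998 and 0.777 in small intestine, and Gc, the vitamin D binding protein, at 4956 and 4602 against 0.755 and 0.730. For each of the 3 genes both liver libraries lay over 3 orders of magnitude above both small intestine libraries, with log2 differences of 12.10 (SE 0.23, adjusted p = 1.64e-06) for Alb, 11.81 for Ahsg and 11.42 for Gc. Ttr, the carrier of thyroid hormone and retinol binding protein, was at 5416 and 4694 FPKM against 4.83 and 2.54, and Serpina3k, a serine protease inhibitor, at 7313 and 8112 against 1.54 and 1.54. Trf, transferrin, was at 70.4 and 56.0 FPKM in liver against 0.117 and 0.0811 in small intestine, but 63.5% of its exon bases lie under exons of another gene, where reads may not have been counted, and its level is uncertain.

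Major urinary proteins, pheromone carriers that the male mouse liver secretes for excretion in urine, made up 15.6% ± 2.49 (SD, n = 2) of the liver sum. All 18 tested Mup genes were called higher in liver, with a median log2 difference of 10.42. Mup3 was at 17082 and 18614 FPKM in liver against 2.54 and 3.28 in small intestine, and Mup20, also known as darcin, at 13122 and 19329 against 2.17 and 3.48. Of the 15 largest differences in the direction of liver, 9 were Mup genes, the pseudogene Mup-ps19 included, and the others were Alb, Ahsg, Gc, Serpina3k, Serpina1a and the predicted gene Gm21320, at 7123 and 8042 against 0.719 and 1.56 FPKM. Mup genes are near-identical in sequence and how reads that match several genes were counted is not stated, so that single Mup values and their sum are uncertain.

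Clotting and complement followed. All 20 tested coagulation and fibrinolysis genes were called higher in liver, against 18.0% of all tested genes (median log2 difference 7.48). Fgb, the beta chain of fibrinogen, had 1478 and 1372 FPKM in liver against 0.183 and 0.371 in small intestine, F2, prothrombin, 446 and 331 against 0.152 and 0.132, and Plg, plasminogen, 769.7 and 648 against 0.309 and 0.0978. The smallest difference was that of Pros1, protein S, at 13.9 and 11.1 FPKM in liver against 5.80 and 3.43 in small intestine. Of 25 tested complement genes, 20 were higher in liver, 1 was higher in small intestine and 4 were not called. The shares were 80% for liver and 4% for small intestine, beside 18.0% and 19.2% of all tested genes. C3, the central component, was at 986 and 849 FPKM against 4.74 and 4.07, and C9, of the membrane attack complex, at 335 and 416 against 0.0909 and 0.0527. The exception was Cfd, complement factor D, with 2.19 and 0.267 FPKM in liver against 11.9 and 12.6 in small intestine (log2 difference -2.72, SE 0.42, adjusted p = 0.00244). Its call did not hold without small intestine library 1 (adjusted p = 0.0752) or without library 2 (0.0793). C1qa, C1qb and C1qc, the macrophage-made subunits of C1q, were not called. Cfb, factor B, was listed at 0.220 and 0.783 FPKM in liver and did not pass the filter, and 79.5% of its exon bases lie under exons of another gene.

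Other secreted products were found in the small intestine. All 29 tested Paneth cell products were called higher in small intestine, against 19.2% of all tested genes, with a median log2 difference of -6.95. Paneth cells sit at the base of the crypts and release antimicrobial proteins into the lumen. The list held 9.22% and 16.2% of the summed FPKM in the small intestine libraries and 0.0164% ± 0.000452 (SD, n = 2) in liver. Defa24 was at 5897 and 8865 FPKM in small intestine against 16.3 and 17.3 in liver (log2 difference -8.66, SE 0.25, adjusted p = 3.29e-06). Lyz1, the Paneth cell lysozyme, was at 1384 and 2534 FPKM against 4.07 and 4.77, Reg3b, a lectin that binds bacteria, at 1318 and 841 against 1.91 and 2.80, and Mmp7, the protease that activates alpha-defensins, at 30.5 and 34.7 against 0.291 and 0.345. Both intestinal libraries exceeded both liver libraries for each of these genes. Of the 15 largest differences in the direction of small intestine, 6 carried a Defa name and 4 more (Gm7849, Gm7861, AY761184 and Gm14851) have no name by function in the table, at 2167 and 3167 FPKM for Gm7849 against 2.55 and 4.79 in liver. Lypd8, a protein that keeps bacteria from the epithelium, and Muc13, a transmembrane mucin, were also among them, at 1081 and 887 against 1.45 and 1.91 FPKM and at 809 and 1094 against 1.23 and 2.39. Alpha-defensin genes are also near-identical in sequence, so single Defa values carry the same doubt as those of the Mup family.

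Goblet cell products, the mucus and its partners, were all higher in small intestine (12 of 12, median log2 difference -6.93). Zg16, a lectin of the mucus granules, reached 1109 and 1254 FPKM in small intestine against 2.72 and 3.52 in liver. Tff3, trefoil factor 3, reached 857 and 737 against 2.84 and 3.24, and Muc2, the gel-forming mucin, 42.7 and 51.6 against 0.196 and 0.103. Of 14 tested enteroendocrine products, 13 were called higher in small intestine and none in liver. Gip, an incretin of the upper intestine, was at 96.1 and 49.9 FPKM in small intestine against 0 and 0.179 in liver, Cck, cholecystokinin, at 29.8 and 14.8 against 0 and 0.0942, and Sct, secretin, at 31.1 and 24.7 against 0.241 and 0. The gene not called was Ddc, the enzyme that makes serotonin and dopamine from their precursors, at 44.8 and 39.2 FPKM in small intestine against 21.9 and 31.5 in liver. Sst, somatostatin, was listed at 0 in both liver libraries and at 39.7 and 20.2 FPKM in small intestine, which was at least 103-fold higher than 3 reads over both liver libraries allow.

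Antibody transcripts were higher in the small intestine as well. Igha, the heavy chain of immunoglobulin A, was at 2503 and 1019 FPKM in small intestine against 13.3 and 10.8 in liver, and Jchain, which joins IgA units, at 433 and 236 against 4.33 and 3.08. Pigr, the receptor that carries IgA across epithelia and into bile, was high in both tissues at 1012 and 818 against 335 and 317 FPKM, with a log2 difference of -1.48 (SE 0.20, adjusted p = 0.00144). Of 24 tested genes of mucosal immunity, 22 were called higher in small intestine and none in liver. Nlrp6, an inflammasome sensor, was at 34.5 and 40.4 FPKM in liver against 35.5 and 45.0 in small intestine, and the tissues overlapped. Small intestine library 1 exceeded library 2 for Igha, Igkc and Jchain, and the summed markers of B and plasma cells were 2955 and 1269 FPKM in these libraries against 19.3 and 15.2 in liver.

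The intestinal libraries themselves differed in a subset of these genes. Among 292 listed genes with a mean of at least 10 FPKM in small intestine, 26 were over 1 log2 unit higher in library 2 and 3 in library 1, while in liver 1 and 9 of 397 differed as much. Defa20 was at 46.6 FPKM in library 1 and 1799 in library 2, and Defa2, Defa21, Defa22, Defa32 and Defa33 differed likewise, whereas Defa24 was at 5897 and 8865. Fabp6, the ileal bile acid binding protein, was at 0.162 and 19.4 FPKM, Slc34a2, a phosphate carrier, at 2.04 and 18.0, and Enpp7, which digests sphingomyelin, at 37.6 and 149. In the other direction stood S100g, the calcium carrier calbindin of the upper intestine, at 263 and 81.8 FPKM, and Gip and Cck as given above. These genes were picked after their values were seen. Whether the pieces of intestine were of the same segment is not stated and was not tested. The log2 differences of the 6 divergent defensins had standard errors of 1.45 to 1.57.

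**Figure D2:**
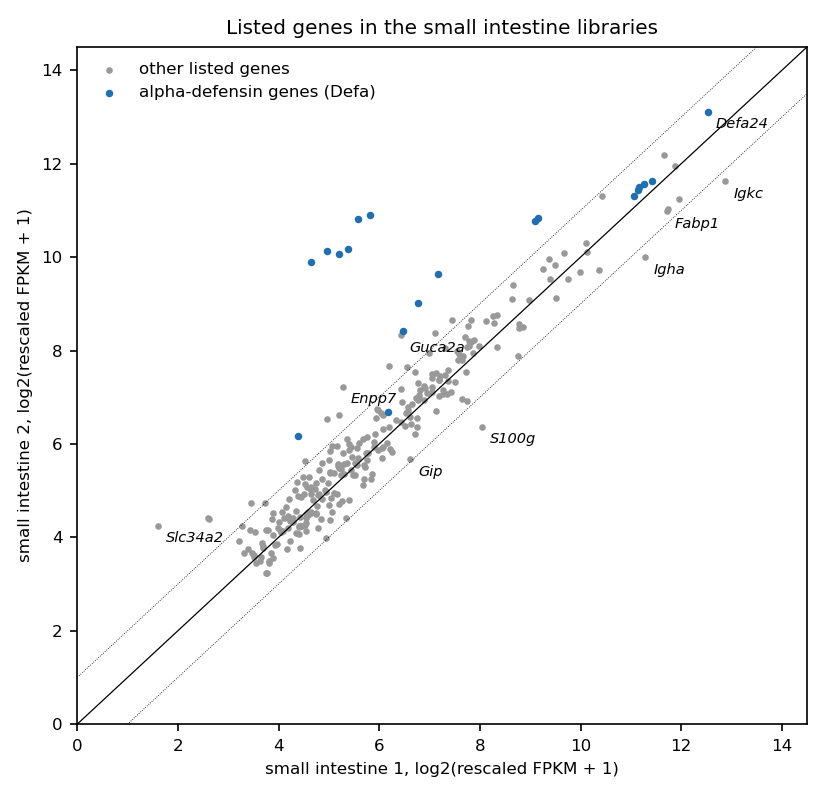
Listed genes with a mean of at least 10 FPKM in small intestine, plotted as log2(FPKM + 1) in library 1 against library 2. The solid line marks equality and dotted lines a difference of 1 log2 unit; alpha-defensin genes are blue, and 6 of them lie about 5 log2 units above the line.

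Apolipoprotein genes divided by component. Of 11 tested apolipoprotein genes, 9 were called higher in liver, Apoa4 was called higher in small intestine and Apoa1 was not called. Apoa1, the main protein of high-density lipoprotein, was at 4522 and 3263 FPKM in liver against 3744 and 3954 in small intestine, a log2 difference of -0.0021 with a 95% interval of -0.64 to 0.64. The tissues overlapped in these values, though the difference was -0.86 with the values as deposited and -1.32 with quantile normalization. Apoa2 was at 10881 and 10414 FPKM in liver against 3.17 and 4.39 in small intestine, and Apoe, a ligand for lipoprotein uptake, at 9783 and 8013 against 104 and 73.0. Apob, the backbone of very low density lipoprotein and of chylomicrons, was at 140.2 and 94.8 against 35.4 and 46.4 FPKM (log2 difference 1.48, SE 0.25, adjusted p = 0.00362). Its call did not hold without liver library 1 (adjusted p = 0.0509) or small intestine library 1 (0.0691). Apoa4, which the gut adds to chylomicrons, was at 436 and 355 FPKM in small intestine against 7.80 and 7.04 in liver, and 69.8% of its exon bases lie under exons of another gene, so its level is uncertain.

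Among 20 tested genes of lipoprotein assembly and clearance, 11 were called higher in liver and 5 (Mttp, Apobec1, Cidec, Sort1 and Tm6sf2) higher in small intestine, the second a share of 25% near the 19.2% of all tested genes. Mttp, the transfer protein that loads lipid onto apolipoprotein B, was at 37.6 and 34.4 FPKM in liver against 188 and 222 in small intestine, and Tm6sf2, which acts in lipidation, at 23.2 and 18.0 against 123 and 135. Apobec1, which edits the Apob transcript to its short form, was at 5.41 and 7.05 against 15.8 and 22.4 FPKM (log2 difference -1.46, adjusted p = 0.00238), a call that did not hold without liver library 1 (0.0537). Lipc, hepatic lipase, was at 104 and 114 FPKM in liver against 0.144 and 0.219 in small intestine. The scaling as deposited left 7 of the list called higher in liver.

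Fat absorption genes were higher in small intestine in 11 of 20 tested cases, where 19.2% of all tested genes were, and higher in liver in 3, a share of 15% under the 18.0% of all tested genes, namely Lipa, a lysosomal lipase, Dgat2 and Agpat3, both of glyceride synthesis. With the values as deposited the log2 differences of these 3 genes were 0.77, 0.65 and 0.45, below the threshold. The call of Dgat2 also did not hold without liver library 1 (adjusted p = 0.05). Rbp2, which binds absorbed retinol, was at 3989.5 and 2426 FPKM in small intestine against 7.76 and 8.31 in liver. Fabp2, the intestinal fatty acid binding protein, was at 3241 and 4677 against 67.7 and 69.9, and Mogat2, which rebuilds triglyceride from monoglyceride, at 164 and 189.7 against 0.509 and 0.335. Npc1l1, the cholesterol importer that ezetimibe blocks, was at 60.2 and 92.3 FPKM in small intestine against 0.104 and 0.0825 in liver (log2 difference -6.11, SE 0.23, adjusted p = 9.23e-06). Clps, colipase, a product of the exocrine pancreas, was also counted among the 11, at 212 and 119 FPKM, and the acinar markers named above and the acinar markers named above moved with it, a part that was not tested. Fabp1, the liver fatty acid binding protein, was abundant in both organs at 2999.8 and 2793 FPKM in liver against 3355 and 2016 in small intestine, a log2 difference of 0.15 with an interval of -0.60 to 0.90. With quantile normalization the difference was -1.07 and was called higher in small intestine.

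Promoters of 3 genes are shown because their levels stand for the division: Alb for the liver, Sis, the sucrase-isomaltase of the brush border, for the intestine and Fabp1 for both. The windows run from 250 bases before to 50 bases from the start of transcription and come from RefSeq (build GRCm38.p6), at chr5:90460620-90460919 on the plus strand for Alb, chr6:71199629-71199928 on the plus strand for Fabp1 and chr3:72967814-72968113 on the minus strand for Sis. Capitals mark matches to 5 short motifs on either strand: GTTAAT (part of the site of HNF1 factors), CAAAGT (part of the HNF4 site), TTTATG (a CDX site), TTGCAA (part of the C/EBP site) and TATAAA (the TATA box), the CDX and TATA motifs sharing 5 letters on opposite strands.
Alb: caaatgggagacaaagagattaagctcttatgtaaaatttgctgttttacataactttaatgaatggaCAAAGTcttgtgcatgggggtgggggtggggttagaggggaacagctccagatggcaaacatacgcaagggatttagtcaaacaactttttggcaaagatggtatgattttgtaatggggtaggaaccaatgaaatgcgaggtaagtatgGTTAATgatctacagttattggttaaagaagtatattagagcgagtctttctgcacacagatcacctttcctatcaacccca
Fabp1: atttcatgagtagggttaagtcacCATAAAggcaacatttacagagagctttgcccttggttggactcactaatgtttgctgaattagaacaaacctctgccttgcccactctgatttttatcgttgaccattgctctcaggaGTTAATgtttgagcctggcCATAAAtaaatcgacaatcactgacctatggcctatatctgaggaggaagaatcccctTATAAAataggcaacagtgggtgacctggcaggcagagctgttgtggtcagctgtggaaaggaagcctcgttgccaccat
Sis: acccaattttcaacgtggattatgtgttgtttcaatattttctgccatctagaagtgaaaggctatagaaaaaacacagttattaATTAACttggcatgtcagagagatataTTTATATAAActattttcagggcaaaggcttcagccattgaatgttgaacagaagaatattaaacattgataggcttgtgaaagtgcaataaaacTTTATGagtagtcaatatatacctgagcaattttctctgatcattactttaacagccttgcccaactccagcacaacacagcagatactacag
The Alb window held an HNF1 motif 27 to 32 bases and an HNF4 motif 177 to 182 bases before the start. The Fabp1 window held an HNF1 motif, a TATA box at 25 to 30 bases and a pair of CDX sites, and the Sis window an HNF1 motif, a CDX site at 38 to 43 bases and overlapping TATA motifs. Over all 32851 promoter windows of the table, the HNF1 letters occurred in 7.10%, HNF4 in 14.4%, CDX in 11.9%, C/EBP in 6.23% and TATA in 13.6%. In the 10799 windows of genes that were tested, from which the called genes come, the shares were 5.19%, 13.1%, 7.12%, 5.09% and 8.44%. In 234 windows of genes called over 5 log2 units higher in liver the shares were 19.2%, 27.4%, 17.5%, 12.4% and 23.5%. In 163 windows of genes called as much higher in small intestine they were 12.9%, 26.4%, 17.2%, 3.68% and 26.4%. A match describes the letters and is not a binding site.

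Among the factors after which these motifs are named, Cdx2, which sets intestinal identity, was at 17.3 and 20.9 FPKM in small intestine and listed at 0 in both liver libraries. Cdx1, its relative, was at 40.3 and 47.4 FPKM in small intestine against 0 and 0.0702 in liver. Hnf4a was at 87.7 and 76.5 FPKM in liver against 42.5 and 60.4 in small intestine and was not called, whereas its relative Hnf4g was at 0.0592 and 0.0467 against 31.7 and 56.5. Cebpa, a hepatocyte regulator, was at 95.7 and 95.5 FPKM in liver against 11.4 and 10.2 in small intestine. Over the lists, 10 of 20 tested liver factors were higher in liver and 18 of 21 tested intestinal factors higher in small intestine. Tox3, of the liver list, was called higher in small intestine, at 1.57 and 2.21 FPKM against 0.232 and 0.110 in liver. Creb3l3, which drives lipid genes in both organs, was at 102 and 91.1 against 86.9 and 119 FPKM, and the groups overlapped.

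Genes of digestion at the brush border were higher in small intestine. All 20 tested hydrolases of the list were called higher there, against 19.2% of all tested genes, with a median log2 difference of -5.79. Sis was at 158 and 264 FPKM in small intestine against 0.479 and 0.494 in liver, Lct, lactase, at 91.8 and 99.7 against 0.170 and 0.192, and Alpi, intestinal alkaline phosphatase, at 464 and 362 against 0.732 and 0.579. Such genes, below 1 FPKM in both liver libraries, passed the filter through the small intestine libraries alone. The list was also chosen with earlier results known, so its count is a description and not a test. Anpep, aminopeptidase N, which also lies on the bile canaliculus, kept the highest liver level of the list at 26.2 and 21.0 FPKM, against 612 and 860.3 in small intestine (log2 difference -4.90, SE 0.23, adjusted p = 2.25e-05). Tmprss15, the enteropeptidase that activates trypsinogen, was at 9.44 and 6.83 FPKM in small intestine.

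Carriers for the products followed the enzymes. Of 18 tested sugar and amino acid carriers, 15 were higher in small intestine and none in liver. Slc5a1, the sodium-glucose cotransporter, was at 226 and 399.7 FPKM in small intestine against 1.25 and 1.17 in liver, Slc15a1, the peptide carrier, at 31.0 and 49.2 against 0.159 and 0.101, and Slc6a19, a neutral amino acid carrier, at 62.2 and 105 against 0.404 and 0.589. Slc2a2, the carrier through which glucose and fructose leave the enterocyte and enter the hepatocyte, was at 38.2 and 46.8 FPKM in small intestine against 41.5 and 39.0 in liver. Its log2 difference was -0.07 with an interval of -0.50 to 0.36, and the tissues overlapped, though the difference was -0.91 with the values as deposited. Of 24 tested genes for ions, metals and vitamins, 18 were higher in small intestine, and Slc40a1, the iron exporter ferroportin, was higher in liver at 13.6 and 12.03 against 5.46 and 3.62 FPKM. This call did not hold without liver library 1 (adjusted p = 0.0566). Guca2b, uroguanylin, was at 505 and 540.1 FPKM in small intestine against 1.43 and 1.55, and its receptor Gucy2c at 36.6 and 39.4 against 0.0786 and 0.0621.

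Bile acid genes divided by step. All 13 tested genes of synthesis and conjugation were called higher in liver (median log2 difference 4.83). Cyp7a1, the rate-limiting enzyme, was at 4.25 and 9.98 FPKM in liver, and was listed at 0 in both small intestine libraries, at least 274-fold lower than in liver. Cyp8b1, which sets the cholic acid share, was at 133 and 193 FPKM against 0.119 and 0.0345, and Baat, which joins bile acids to taurine, at 165 and 219.9 against 0.638 and 0.763. Cyp27a1, which hydroxylates the side chain, had the highest intestinal level of the cytochromes in this list, at 352 and 263 FPKM in liver against 22.2 and 48.8 in small intestine. Hsd3b7 was listed at 0 in all 4 libraries, and 99.2% of its exon bases lie under exons of another gene.

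Of 9 tested genes of hepatic bile acid and bile transport, 8 were higher in liver. Slc10a1, the sodium-dependent importer of the hepatocyte, was at 255 and 260.5 FPKM in liver against 0.211 and 0.184 in small intestine, and Abcb11, the bile salt export pump, at 95.5 and 79.3 against 0.0602 and 0.0393. Atp8b1, a lipid flippase that guards the canaliculus, was the hepatic transport gene called higher in small intestine, at 16.8 and 23.9 FPKM against 3.04 and 3.86 in liver. Slc51a, a subunit of the basolateral exporter of the enterocyte, was at 66.2 and 98.0 FPKM in small intestine against 0.194 and 0.691 in liver, and its partner Slc51b at 19.0 and 31.2 against 0 and 0.347. Slc10a2, the apical importer of the ileum, was called higher in liver, at 9.82 and 6.45 FPKM against 0.224 and 1.23 in small intestine (log2 difference 2.44, SE 0.33, adjusted p = 0.00146). Both liver libraries exceeded both small intestine libraries. The importer is also known from bile duct cells, and of 6 tested markers of bile duct and gallbladder 1, Spp1, was called higher in liver and 4 higher in small intestine. Their summed level was 56.3 and 77.6 FPKM in liver, most of it Spp1, and 663 and 836 in small intestine, most of it Epcam and Krt19, which the intestinal epithelium also expresses. Their part in the result was not tested. Fabp6 and Fgf15, the ileal hormone that curbs bile acid synthesis, were listed at 0 in liver and did not pass the filter, Fgf15 with 0 and 0.418 FPKM in small intestine. Of the genes that sense bile acids or FGF15, 4 of 6 tested were higher in liver. Fgfr4, the FGF15 receptor, was at 9.31 and 8.99 FPKM in liver against 0.546 and 0.456 in small intestine, its partner Klb at 6.02 and 5.70 against 0 and 0.0740, and Nr1h4, the bile acid receptor FXR, at 34.9 and 40.7 against 8.61 and 11.1. Vdr, the vitamin D receptor, was the reverse, at 46.3 and 59.2 FPKM in small intestine against 0.220 and 0.283 in liver.

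**Figure D3:**
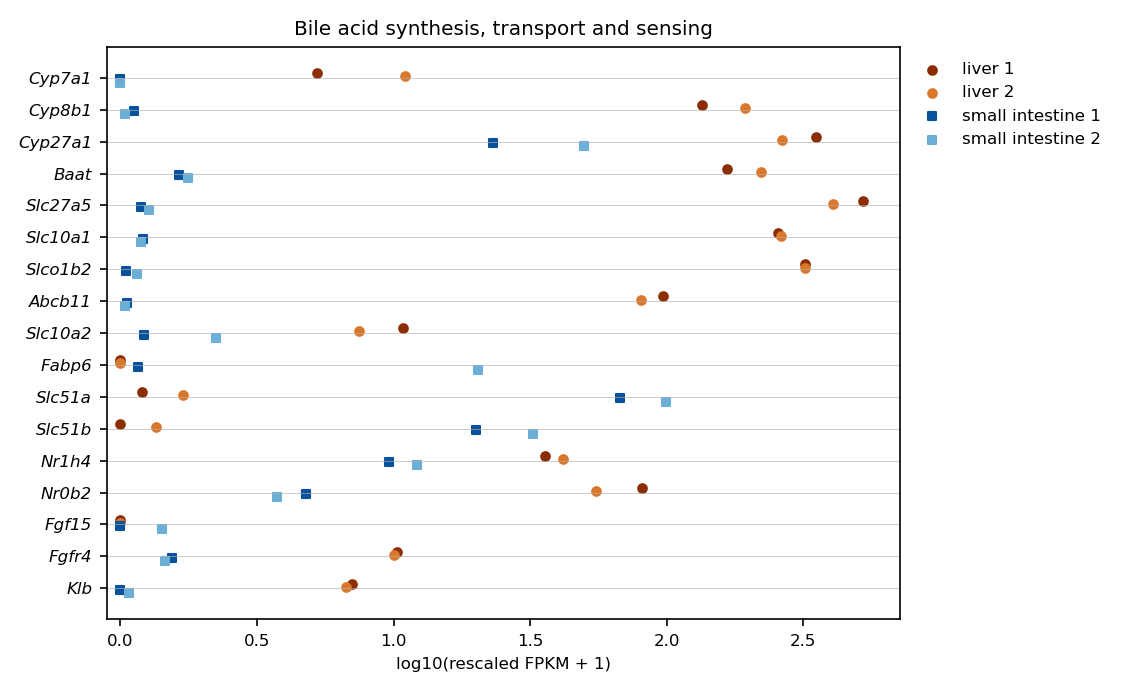
Level of 17 bile acid genes in each library, as log10(FPKM + 1), with circles for liver and squares for small intestine. Synthesis genes, Slc10a1 and Abcb11 are high in liver, Slc51a and Slc51b in small intestine, and Fabp6 is seen in small intestine library 2 at 19.4 FPKM.

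Genes of nitrogen disposal were higher in liver. Of 12 tested genes of the urea cycle and ammonia disposal, 11 were higher in liver and Nags, which makes the activator of the first step, was not called. The share in the direction of liver was 91.7%, beside 18.0% of all tested genes. Cps1, the mitochondrial entry enzyme, was at 715 and 615 FPKM in liver and still at 61.6 and 57.8 in small intestine, and Otc, the next enzyme, at 195 and 210.3 against 36.6 and 43.3. The argininosuccinate steps that follow were at a few FPKM in the intestine. Ass1 was at 1498 and 899.8 FPKM in liver against 2.41 and 2.09 in small intestine, and Asl, the enzyme after it, at 145 and 119 against 3.29 and 3.18. The log2 differences were 3.45 for Cps1, 2.32 for Otc, 8.48 for Ass1 and 4.97 for Asl. Oat, which makes ornithine and proline precursors, was at 684 and 414 FPKM in liver against 214 and 269.6 in small intestine, and its call did not hold without liver library 1 (0.110) or without either small intestine library (0.169 and 0.104).

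Of 8 tested genes of glutamine use and citrulline or proline synthesis, 5 were higher in small intestine and 2, Oat and Prodh, higher in liver, the latter near the 18.0% of all tested genes. Prodh, proline dehydrogenase, was at 60.3 and 41.6 FPKM in liver against 4.83 and 9.71 in small intestine. Aldh18a1, which turns glutamate toward proline and citrulline, was at 25.9 and 21.9 FPKM in small intestine against 0.382 and 0.845 in liver. In contrast, 41 of 44 tested genes of amino acid breakdown were higher in liver and none in small intestine. Tat, tyrosine aminotransferase, was at 1277 and 889.6 FPKM in liver against 0.161 and 0.252 in small intestine, and Mat1a, the hepatic S-adenosylmethionine synthetase, at 916 and 711 against 0.179 and 0.0971. The genes not called were Gpt and Bcat2, both aminotransferases, and Sdsl, a serine dehydratase-like gene.

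Of 15 tested genes of gluconeogenesis and glycogen, 14 were higher in liver, the other being Gyg, glycogenin. Pck1 was at 1241 and 876 FPKM in liver against 30.3 and 92.1 in small intestine, and G6pc, which frees glucose for export, at 239 and 365 against 23.7 and 32.0. Gys2, the liver glycogen synthase, was at 57.0 and 37.0 FPKM and listed at 0 in both small intestine libraries, at least 1149-fold lower. Of 8 tested genes of fructose use, 2 were higher in liver and 2 higher in small intestine, 25% each and near the 18.0% and 19.2% of all tested genes, and 4 were not called. The count in the direction of small intestine was 5 with libraries scaled to the same sum, and 1 without liver library 1 or without either small intestine library. Khk, ketohexokinase, which starts fructose use, was at 189.8 and 169.6 FPKM in liver against 209 and 184 in small intestine, and Tkfc, which takes up the triose at the end, at 134 and 109.6 against 132 and 138. Their log2 differences were -0.13 with an interval of -0.57 to 0.31 and -0.15 with an interval of -0.60 to 0.30, and neither was called. Slc2a5, the fructose importer, was intestinal at 24.1 and 22.1 FPKM against 1.88 and 0.976.

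Genes of fat oxidation and synthesis differed by smaller steps. Of 26 tested genes of fatty acid oxidation and ketone bodies, 18 were higher in liver and 2 in small intestine, with a median log2 difference of 1.62. These shares of 69.2% and 7.69% stand beside 18.0% and 19.2% of all tested genes, so the second was under that of all genes. Oxct1, with which tissues other than the hepatocyte burn ketone bodies, was at 21.1 and 17.8 FPKM in small intestine against 2.35 and 4.22 in liver, and Slc22a5, the carnitine importer, at 17.5 and 27.4 against 10.3 and 6.60. Cholesterol synthesis was called higher in liver in 15 of 22 tested genes, or 68.2% beside 18.0% of all tested genes, and in none in small intestine. Under the deposited scaling, the counts in the direction of liver were 10 for oxidation and 7 for cholesterol synthesis, and 1 gene of cholesterol synthesis was called higher in small intestine. Without liver library 2, 1 gene of oxidation was called higher in small intestine. Of 16 tested genes of fatty acid synthesis, 14 were higher in liver. Scd1, the stearoyl desaturase, was at 707 and 306 FPKM against 2.21 and 5.18, and Elovl3, an elongase, at 161 and 296 against 0 and 0.0451. Elovl6, another elongase, overlapped between the tissues, at 10.8 and 8.16 against 9.21 and 9.97 FPKM (interval of the log2 difference -0.48 to 0.42).

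Of 55 tested cytochrome P450 genes of families 1 to 4, out of 80 listed, 38 were higher in liver and 12 higher in small intestine, where 18.0% and 19.2% of all tested genes were called in these directions, so that the second count lay near the share of all genes. Cyp2e1, which oxidises ethanol, was at 3049 and 2104 FPKM in liver against 2.22 and 1.59 in small intestine, and Cyp1a2, which acts on caffeine, at 367 and 325 against 0.385 and 0.234. Cyp2c65 was the reverse, at 108 and 122 FPKM in small intestine against 0.323 and 0.191 in liver, as was Cyp2b10, at 146 and 173 against 6.34 and 2.27. Cyp3a11, the main mouse member of the family that handles most drugs, was high in both, at 1799 and 1692 FPKM in liver against 137 and 331 in small intestine (log2 difference 3.03, SE 0.42, adjusted p = 0.00150), a call that did not hold without liver library 1 (0.0524). Cyp4a10 and Cyp4a14, fatty acid hydroxylases, were at 521 and 138 and 253 and 68.3 FPKM in the liver libraries, the widest gaps between the liver libraries among listed genes with a mean of at least 10 FPKM. Members of these families share sequence, so single values may have gained or lost reads to a neighbour.

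Of 40 tested conjugation enzymes, 25 were higher in liver and 7 higher in small intestine, the second count again near the 19.2% of all tested genes. Ugt2b5, a glucuronosyltransferase, was at 929.7 and 995 FPKM in liver against 41.4 and 26.9 in small intestine, and Gstm1, a glutathione transferase, at 1442 and 1245 against 186 and 253. Gsta1 was the reverse, at 733 and 558 FPKM in small intestine against 17.3 and 6.43 in liver, as was Sult1b1, a sulfotransferase, at 110.2 and 132 against 10.8 and 9.46. The Ugt1a genes share their last exons, so that reads there cannot be assigned to one of them.

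**Figure D4:**
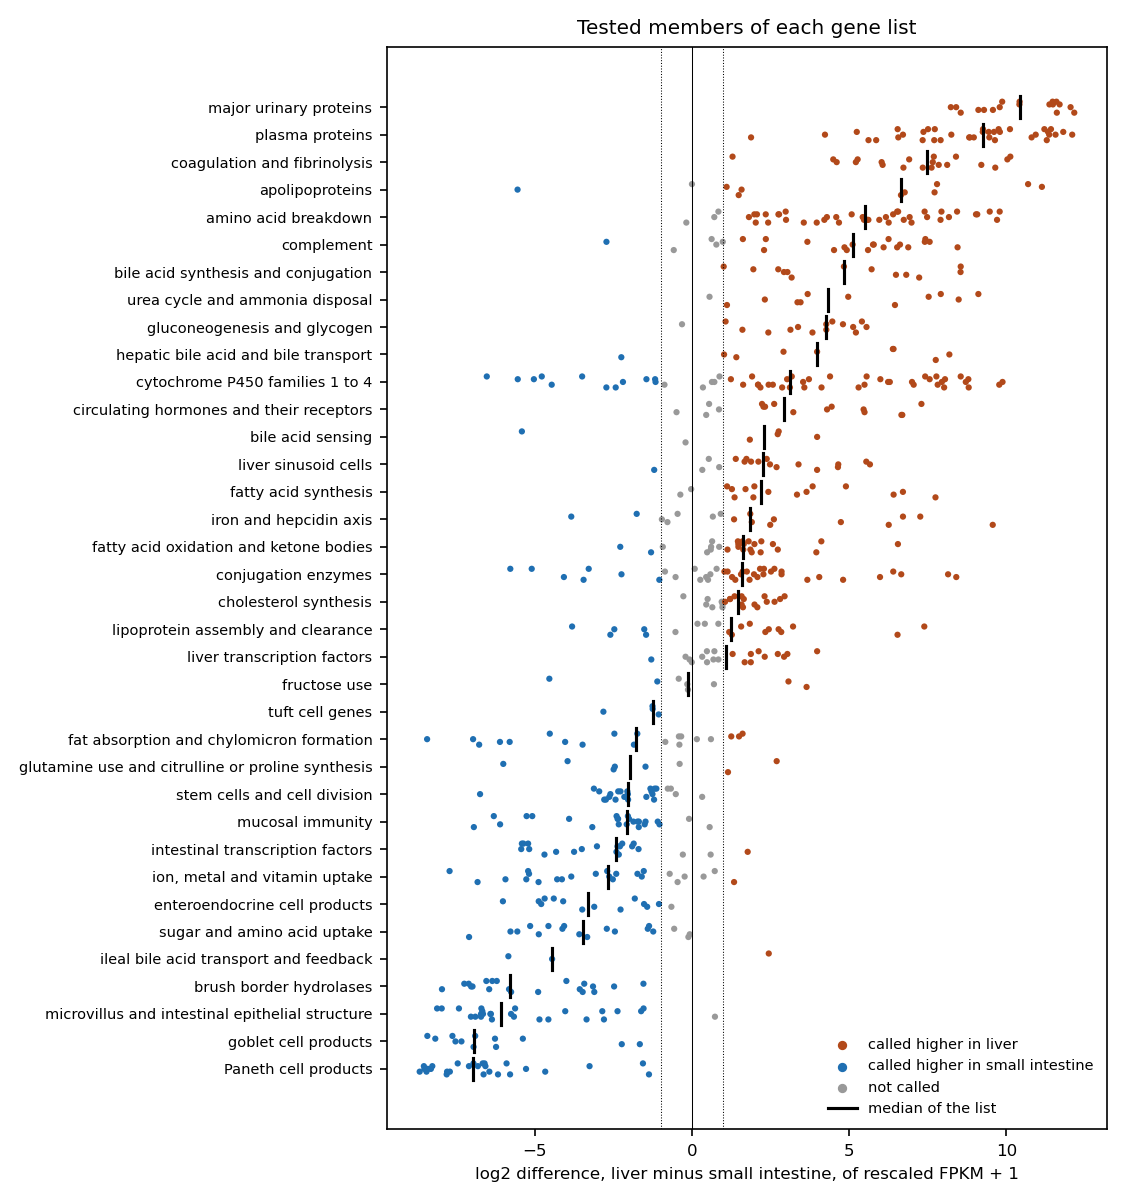
Log2 difference, liver minus small intestine, of every tested member of 36 gene lists (points, brown where called higher in liver, blue where called higher in small intestine and grey where not called), ordered by the median of the list (black bar), with dotted lines at -1 and 1. The lists run from major urinary proteins at 10.42 to Paneth cell products at -6.95, while fructose use, at -0.14, lies near 0.

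In the list of iron and the hepcidin axis, 10 of 17 tested genes were higher in liver and 2 in small intestine, the second a share under the 19.2% of all tested genes. With the values as deposited, and likewise with the same sum in each library, 5 were called higher in small intestine. Hamp, hepcidin, which closes ferroportin, was at 534 and 1279 FPKM in liver against 0.189 and 0 in small intestine, and Tfr2, which takes part in iron sensing, at 87.2 and 72.2 against 0.0357 and 0.0621. The intestine held Heph, the oxidase that passes iron on, at 13.6 and 19.97 FPKM against 0.264 and 0.176, and more Tfrc, the transferrin receptor, at 16.2 and 20.3 against 4.18 and 5.17. Fth1, ferritin heavy chain, was at 3416 and 2085 FPKM in small intestine against 1669 and 1129 in liver and was not called (adjusted p = 0.0511). Cybrd1, the duodenal ferric reductase, was at 0.493 and 0.353 FPKM in small intestine and did not pass the filter.

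In a list of circulating hormones and receptors that leaves out the hormones of enteroendocrine cells, counted above, 12 of 16 tested genes were called higher in liver and none in small intestine, or 1 with the values as deposited. Igf1, insulin-like growth factor 1, was at 60.0 and 58.8 FPKM in liver against 0.360 and 0.388 in small intestine, its inducer's receptor Ghr at 41.2 and 41.2 against 1.10 and 0.789, and Gcgr, the glucagon receptor, at 144 and 140.3 against 0.443 and 0.385. Gcg, of the enteroendocrine list, whose products are glucagon and the intestinal GLP-1, was at 9.48 and 12.4 FPKM in small intestine against 0.104 and 0 in liver. Leap2, which blocks the ghrelin receptor, was found in both organs, at 51.3 and 84.5 against 107 and 81.3 FPKM, with an interval of the log2 difference of -1.20 to 0.21. Fgf21, a fasting hormone of the liver, was at 0 and 0.129 FPKM in liver and did not pass the filter.

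Genes of structure and renewal were higher in the intestinal wall. Of 26 tested genes of the microvillus and epithelial structure, 25 were called higher in small intestine and Krt18 was not called. Vil1, villin, was at 276 and 399 FPKM in small intestine against 0.745 and 1.18 in liver, and Krt20, a keratin of the villus, at 402 and 677 against 0.888 and 0.893. Of 26 tested genes of stem cells and division, 22 were higher in small intestine and none in liver. Olfm4, a crypt base marker, was at 132 and 169 FPKM in small intestine against 0.683 and 0.166 in liver, and Mki67, of dividing cells, at 4.76 and 4.98 against 0.170 and 0.134. In the tuft cell list 4 of 4 tested genes were higher in small intestine, among 9 listed, where 19.2% of all tested genes were. On the liver side, 14 of 18 tested genes of sinusoid cells were higher in liver, or 77.8% beside 18.0% of all tested genes. Clec4f, of Kupffer cells, was at 52.5 and 48.4 FPKM in liver against 0.0313 and 0 in small intestine, and Stab2, of sinusoidal endothelium, at 4.25 and 4.83 against 0.0442 and 0.0846. Rgs5, of pericytes, was higher in small intestine at 20.4 and 17.9 against 8.90 and 6.68 FPKM, a call that did not hold without small intestine library 1 (adjusted p = 0.0531), and the summed smooth muscle markers of 233 and 201 FPKM in small intestine against 7.05 and 6.13 in liver moved with it, a part that was not tested.

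In 24 pairs of genes with the same or a like activity, 7 were called in opposite directions and in 14 the order of the genes within a library was reversed between the tissues in all 4 libraries. These comparisons are made inside a library and do not depend on the scaling between libraries, except through the 1 added to each value. In the small intestine libraries the order of Slc10a1 and Slc10a2 in library 1 (6 and 12 reads) and of Slc38a4 and Slc38a5 in both (5 or 6 reads each) lies within counting error, so these 2 of the 14 are uncertain. The log2 ratios of Slc27a5, the hepatic bile acid and fatty acid ligase, over Slc27a4, its intestinal relative, were 6.06 and 6.00 in liver against -6.47 and -6.62 in small intestine. For Mat1a over Mat2a, the synthetase of most other tissues, they were 3.46 and 3.34 against -4.04 and -4.25. Mat2a itself was also called higher in liver, at 82.1 and 69.1 FPKM against 18.3 and 19.9 in small intestine. For Acsl1 over Acsl5, both of which activate long-chain fatty acids, the log2 ratios were 0.45 and 0.55 against -5.20 and -5.19. Dgat2 over Dgat1, both of which complete triglyceride, stood at 4.12 and 3.75 against -2.26 and -1.92, although the call of Dgat2 did not hold without liver library 1 (adjusted p = 0.05). Sult1a1 over Sult1b1 and Cyp2c29 over Cyp2c65 also changed sides. Atp7b over Atp7a, both copper pumps, kept the same order in all 4 libraries.

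**Figure D5:**
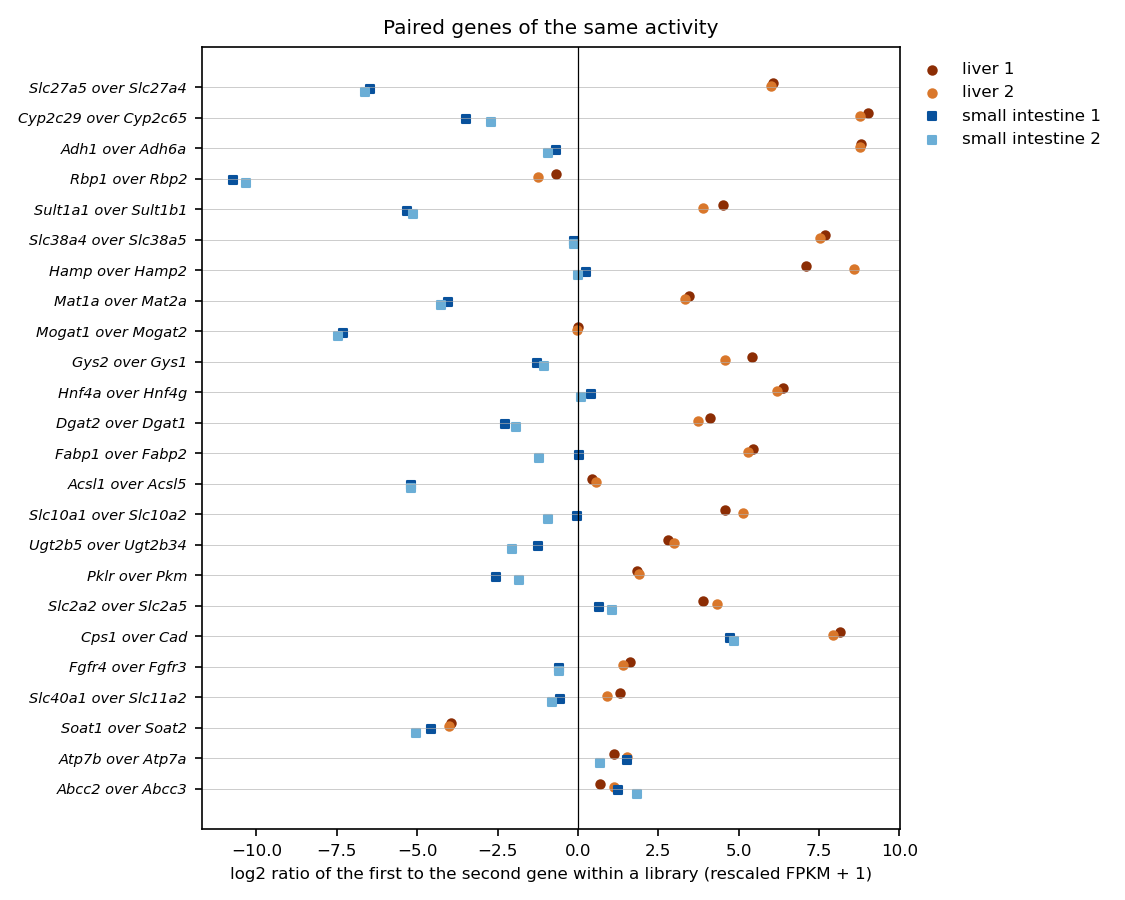
Log2 ratio of the first to the second gene of 24 pairs within each library, from FPKM + 1, with circles for liver and squares for small intestine. Pairs whose circles lie right of 0 and squares left of it, 14 in number, change their order between the tissues.

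A mean of at least 100 FPKM was reached by 504 genes in liver and 371 in small intestine, mitochondrial genes and their chromosome 1 copies left out. Among these, 138 reached 100 FPKM in all 4 libraries, and 68 of these differed by less than 0.5 log2 units. The 10 highest were Apoa1, Fabp1, Rplp1, Gm13341, H2-K1, P4hb, Cox8a, Cyc1, Gapdh and Atp5b. Gm13341 is annotated as an unprocessed pseudogene on chromosome 2, which the exclusion above did not cover, and the origin of its reads was not tested. Gapdh, of glycolysis, was at 407 and 318 FPKM in liver against 378 and 328 in small intestine, and P4hb, a chaperone of secretory proteins, at 499.7 and 369.8 against 517 and 466. Being shared in this sense depended on the scaling: P4hb, Rplp1, Cox8a and Cyc1 had differences under -1 with adjusted p-values below 0.05 both with the values as deposited and with quantile normalization.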

How the data were processed

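Bulk poly(A) RNA was sequenced from 2 libraries of liver and 2 of small intestine. The authors aligned reads with STAR 2.5.3a to the mouse genome GRCm38 with Ensembl annotation, and the FPKM values that the authors deposited came from DESeq2 by its fpkm function. The counting program, its use of strand and of reads that match several genes are not given in the sources used here, and a gene that overlaps another may have lost reads.

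Samples were grouped by tissue label. Each of the 4 columns was tied to a sample by its name, and 0 columns were left without a sample. Of 52195 genes, 51844 matched a gene of the reference annotation by name. Whole reads, within 0.02 reads for values up to 50 reads, were recovered from the FPKM steps to give the depth of each library and a floor of 3 reads. FPKM values were rescaled by the median of ratios over the 4 libraries. Genes that reached 1 FPKM in 2 or more libraries were kept, log2(FPKM + 1) was taken, and liver was compared with small intestine with limma 3.58.1 in R 4.3.3 (empirical Bayes with a trend, Benjamini-Hochberg adjustment over 12317 genes). A fold change on the log2(FPKM + 1) scale understates the change of low genes. The script was tested on simulated data. Figures and summaries were made in Python 3.11.15.

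The 36 gene lists, the 15 marker lists and the genes compared were chosen with earlier results of these data known. Genes named in the text were the 15 largest differences in each direction with a mean of at least 10 FPKM, key genes of each list, listed genes called against the side of their list, the 10 highest shared genes, the highest gene of each library and members of the isoform pairs. Genes picked after their values were seen are named as such. Other pseudocounts, filters, scalings, fits and the leaving out of each library were tried. Some genes are not reported here by name.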

Additional observations from a re-analysis of the deposited data

How the results depend on the processing

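The largest changes came with the scaling. The counts of genes called higher in liver and in small intestine were 1324 and 4428 with the values as deposited and 1284 and 4705 with libraries set to the same sum without mitochondrial genes. The median log2 difference of all genes was -0.67 and -0.72 under these scalings, -0.0281 with quantile normalization, -0.0340 with all genes above 0, -0.0750 with the filter on the values as deposited and -0.0026 with limma-voom on the recovered reads. Under the deposited and the same-sum scaling alike, 7 genes of lipoprotein assembly and 7 of cholesterol synthesis were called higher in liver, and 2 genes of bile acid sensing, 1 of cholesterol synthesis, 5 of the iron list and 1 of the hormone list higher in small intestine. Fatty acid oxidation had 10 and 9 genes called higher in liver, and the same sum gave 5 genes of fructose use and 1 of fatty acid synthesis higher in small intestine. With quantile normalization 2 apolipoproteins were called higher in small intestine, and Fabp1 reversed to -1.07 (limma adjusted p = 0.0115). Fructose use had 1 gene called higher in small intestine with all genes above 0 kept. The cause of these changes was not tested.

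Leaving out each library in turn gave 1 to 2 genes of fructose use called higher in small intestine (1 without liver library 1 and without either small intestine library) and 1 to 2 of fatty acid oxidation (1 without liver library 2). Of 170 called genes with alternatives, 13 lost the call without 1 library, and those named are given beside their values. With the mitochondrial genes and their copies included, the shares in liver and small intestine were 14.02% and 0.00882% for plasma proteins, 9.04% and 0.00251% for major urinary proteins, 3.26% and 0.957% for apolipoproteins, 0.00951% and 6.51% for Paneth cell products, 0.00861% and 0.612% for hydrolases, 0.405% and 2.23% for fat absorption and 1.54% and 0.367% for cytochromes P450. Deviations from the tissue mean in liver library 1 and small intestine library 1 correlated at -0.03 over genes. With 2 libraries per tissue this cannot tell whether libraries with the same replicate number share a mouse. A fit with the replicate number as a block called 2215 and 2366 genes. Depth limits genes with 3 reads or fewer in a library.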

Other observations

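Among 41 genes with a mean of at least 500 FPKM in small intestine, called higher there by over 5 log2 units, the level in small intestine was a median of 396 times that in liver, with quartiles of 320 and 444 and a range of 54.5 to 885, where the choice of genes by a difference of over 5 log2 units leaves out lower ratios. The 13 alpha-defensin genes among them had a median of 406. Among the 76 genes chosen in the same way for liver, the level in liver was a median of 3722 times that in small intestine, with quartiles of 1367 and 5762 and a range of 46.1 to 16484. All 41 and all 76 genes were above 0 in the tissue with the lower level. These ratios were examined after the values were seen, and what lies behind their spread was not tested.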
